A study of Homo sapiens with 8 samples.

Results

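The genes described here are 10 immediate early response genes, FOS, FOSB, JUN, JUNB, JUND, EGR1, IER2, IER3, DUSP1 and ZFP36, chosen by symbol and found in the count table through their Ensembl identifiers. All 10 were among the 63140 genes of the table, and all 10 passed the low-count filter that left 24057 genes for testing. Their counts ran from 887 (DUSP1 in HOTSCRAMBL CBE replicate 1) to 27556 (JUND in the same library), and such reads, which carry no molecular identifiers, allow no statement on independent molecules.

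The 8 libraries came from cells labelled MOLM13 and OCI-AML4, established human lines grown from acute myeloid leukaemia (AML), 3 days after editing. All cells had been nucleofected, a form of electroporation, with guide RNAs and an editor. In the KO groups the editor was a Cas9 ribonucleoprotein, which cuts DNA, and in the CBE groups it was a cytosine base editor, which turns C into T and does not rely on a cut of both strands. The guides targeted either the long non-coding RNA HOTSCRAMBL (genotype labels HOTSCRAMBL KO and HOTSCRAMBL CBE) or the AAVS1 site as editing control (genotype label WT with either editor). Each of the 4 groups (AAVS1 KO and AAVS1 CBE as controls, HOTSCRAMBL KO and HOTSCRAMBL CBE as targeted cells) had 2 libraries, of which replicate 1 was labelled MOLM13 and replicate 2 OCI-AML4 in every group. Whether the edited cells were clones or pools, which guides were used and how much of the DNA was edited are not given in the sources used here.

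The RNA was recovered by ChIRP (chromatin isolation by RNA purification), in which fixed and sonicated lysate is captured with biotinylated probes on streptavidin beads. The target of the probes is not named in the sources used here and no input library was used, so each value below is an amount of RNA in a pull-down and not a transcript level of the whole cell. Levels are CPM (the count of a gene scaled to a common library total) after TMM scaling, which corrects for differences in library composition. In such bulk samples, fewer cells with a transcript and less of it per cell cannot be told apart.

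Total counts ran from 20548300 to 37970163 per library. No gene of the table is named HOTSCRAMBL, and whether the transcript is listed under another name was not examined. The edited transcript was therefore not used as a check of the labels. Of 12 myeloid markers, 10 (PTPRC, CD33, SPI1, CEBPA, MPO, FLT3, CSF1R, CSF3R, LYZ and ITGAM) stood at 17.3 CPM or more in every library, while KIT reached at most 0.63 CPM and CD14 at most 2.59 CPM. The summed level of T cell, B cell, erythroid, epithelial or fibroblast markers was at most 12.4 CPM for any of these lists, and CD3E, CD2, HBA2, HBB and COL3A1 had no count. Between the line labels, edgeR's quasi-likelihood test called 119 of the 24057 genes (0.495%). The same test called 8.76% of genes between HOTSCRAMBL KO and AAVS1 KO, and 8.83% between HOTSCRAMBL CBE and AAVS1 CBE. Same-label libraries deviated together weakly (r 0.00851 to 0.0245 over tested genes, 0.0411 to 0.117 over genes above the median level). No library of a known line was at hand, so whether the labels mark different lines was not tested. The p-values below rest on the spread among these labelled libraries together with a spread estimated across all genes. For each gene the edgeR fit had 3 residual and 22.2 to 22.7 prior degrees of freedom, so the estimate across genes weighed most. Results seen in both replicates are not shown to hold across different lines.

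Immediate early genes are transcribed within minutes of a stimulus from factors already present in the cell, without new protein synthesis. Growth factor, stress and cytokine signals reach them through the ERK, JNK and p38 kinases, which act on SRF and its ETS partners at serum response elements (with the CArG box as core) and on CREB and ATF proteins at cyclic AMP response elements (CRE). Their mRNAs are short-lived, and many of their products are transcription factors or feedback inhibitors. In myeloid cells, JUN, FOS and EGR1 are known for their parts in monocytic differentiation.

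FOS, FOSB, JUN, JUNB and JUND encode subunits of AP-1, a dimeric leucine zipper factor in which a FOS protein has to pair with a JUN protein, whereas JUN proteins can also pair with each other. EGR1 encodes a zinc finger transcription factor. IER2 encodes a nuclear regulator of transcription, and IER3 a small protein known for its parts in cell survival and ERK signalling. DUSP1 encodes a phosphatase that inactivates JNK, p38 and ERK, and ZFP36 encodes tristetraprolin, which binds AU-rich elements and promotes the decay of the mRNAs that carry them.

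By the coordinates of the count table (GRCh38), the AP-1 genes were FOS (ENSG00000170345, chr14:75278826-75282230, plus strand), FOSB (ENSG00000125740, chr19:45467995-45475179, plus), JUN (ENSG00000177606, chr1:58776845-58784048, minus), JUNB (ENSG00000171223, chr19:12791486-12793315, plus) and JUND (ENSG00000130522, chr19:18279694-18281622, minus). The others were EGR1 (ENSG00000120738, chr5:138465479-138469303, plus), IER2 (ENSG00000160888, chr19:13150411-13154911, plus), IER3 (ENSG00000137331, chr6:30743199-30744548, minus), DUSP1 (ENSG00000120129, chr5:172768096-172771195, minus) and ZFP36 (ENSG00000128016, chr19:39406847-39409407, plus). The values are reads over all annotated exons of a gene. JUNB, JUND and IER3 each formed 1 exon block, and the summed exon length ran from 1350 bases (IER3) to 5553 bases (FOSB).

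The genes do not carry the same promoter elements. Their promoters are shown as background, and a relation of these elements to the changes below was not tested. RefSeq promoter sequences (GRCh38.p14) were matched by symbol for 9 of the 10 genes, all but IER3. The 130 bases before the transcription start are printed, 5′ to 3′ on the gene's strand, for the 4 AP-1 genes that were called in any comparison below and for EGR1 and DUSP1. Capitals mark, on either strand, the short CRE TGACG (a partial site), the full CRE TGACGTCA (which contains the short CRE), the JUN promoter element TGACATCA, the CArG box and the letters TATAA. The regions are chr14:75278698-75278827 (plus), chr19:45467866-45467995 (plus), chr1:58784048-58784177 (minus), chr19:12791356-12791485 (plus), chr5:138465349-138465478 (plus) and chr5:172771196-172771325 (minus).
FOS: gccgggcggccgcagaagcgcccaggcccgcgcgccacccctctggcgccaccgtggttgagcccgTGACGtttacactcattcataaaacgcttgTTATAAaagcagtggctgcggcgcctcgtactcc
FOSB: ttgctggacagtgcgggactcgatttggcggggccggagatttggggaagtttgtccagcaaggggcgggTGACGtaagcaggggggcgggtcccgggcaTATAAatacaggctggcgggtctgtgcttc
JUN: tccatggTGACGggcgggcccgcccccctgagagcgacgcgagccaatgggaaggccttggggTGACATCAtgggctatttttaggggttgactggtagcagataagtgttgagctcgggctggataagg
JUNB: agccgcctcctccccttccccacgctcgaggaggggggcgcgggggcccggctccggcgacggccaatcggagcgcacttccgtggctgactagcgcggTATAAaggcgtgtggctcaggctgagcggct
EGR1: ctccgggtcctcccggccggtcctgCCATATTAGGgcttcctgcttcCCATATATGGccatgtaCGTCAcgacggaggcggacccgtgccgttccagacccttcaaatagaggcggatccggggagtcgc
DUSP1: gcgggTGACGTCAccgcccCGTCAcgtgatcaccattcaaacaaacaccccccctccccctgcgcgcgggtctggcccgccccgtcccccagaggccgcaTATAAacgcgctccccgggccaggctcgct

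Counted from the transcription start, FOS and FOSB have alike arrangements. The short CRE lies at −64 to −60 in FOS and at −60 to −56 in FOSB, and TATAA begins at −33 in FOS and at −30 in FOSB. JUN holds TGACATCA at −67 to −60 and no TATAA, and JUNB holds TATAA at −31 to −27 with its short CRE at −137 to −133, outside the printed stretch. EGR1 holds 2 CArG boxes, at −105 to −96 and at −83 to −74, and DUSP1 holds a full CRE at −125 to −118. In the whole window of 300 bases (250 before the start and 50 after), the short CRE was in 8 of the 9 promoters, all but ZFP36, and in 24.6% of the 35116 promoters of the table. The full CRE was in 2 (JUND and DUSP1) and in 1.85% of the table, TATAA in 6 (FOS, FOSB, JUNB, JUND, DUSP1 and ZFP36) and in 20.4%, and the CArG box in 1 (EGR1) and in 1.29%. The AP-1 site TGANTCA was in 0 of the 9 and in 7.71% of the table, TGACATCA in 1 (JUN) and in 2.61%, and the EGR site GCGNGGGCG in 1 (EGR1) and in 9.43%. These are matches of letters in a fixed window. Sites beyond it were not searched, so a motif without a match here may lie further from the gene's start. The libraries do not measure binding.

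In the control cells, levels were compared per kilobase (kb) of exon. JUND stood highest in every group, with a mean of 410 CPM per kb in AAVS1 KO. It was followed there by FOS at 152, ZFP36 at 133, EGR1 at 116 and FOSB at 45.4 CPM per kb, each with libraries that did not overlap those of the next gene. DUSP1 at 37.0, JUNB at 36.5, IER3 at 32.7 and IER2 at 29.2 CPM per kb overlapped their neighbours in this order, and JUN was lowest at 15.0 CPM per kb. In AAVS1 CBE the first 4 genes came in the same order, but FOS (147 CPM per kb) and ZFP36 (138 CPM per kb) overlapped, and JUNB at 47.4 CPM per kb stood above FOSB at 38.7 CPM per kb. JUN was again lowest at 14.5 CPM per kb. These levels divide by the full exon length, although reads over exons shared with other genes were not counted, which concerns 52.2% of the exonic bases of IER2, 38.9% of IER3 and 14.2% of JUNB. Per kb of unshared exon, the AAVS1 KO means were 61.2 for IER2, 53.5 for IER3 and 42.5 for JUNB, so that IER2 and IER3 then stood above FOSB, and the order among these genes depends on the length used.

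Between the controls, AAVS1 KO against AAVS1 CBE, the log2 fold changes of the 10 genes ran from −0.38 (JUNB) to 0.23 (FOSB). By edgeR's quasi-likelihood test 0 of the 10 were called, where 0.0% of all genes were, and 1 of the 10 (JUNB) and 918 of all genes had an unadjusted p under 0.05. DESeq2 and limma-voom also called 0 of the 10, each with 2 at an unadjusted p under 0.05, and of all genes they called 35 and 0. Between the line labels, MOLM13 against OCI-AML4, the log2 fold changes ran from −0.03 (JUND) to 0.24 (JUN). Again 0 of the 10 were called by edgeR or by DESeq2, where edgeR called 0.495% of all genes (0.237% higher and 0.258% lower) and DESeq2 called 715, and 0 of the 10 had an unadjusted p under 0.05 with either tool.

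**Figure D1:**
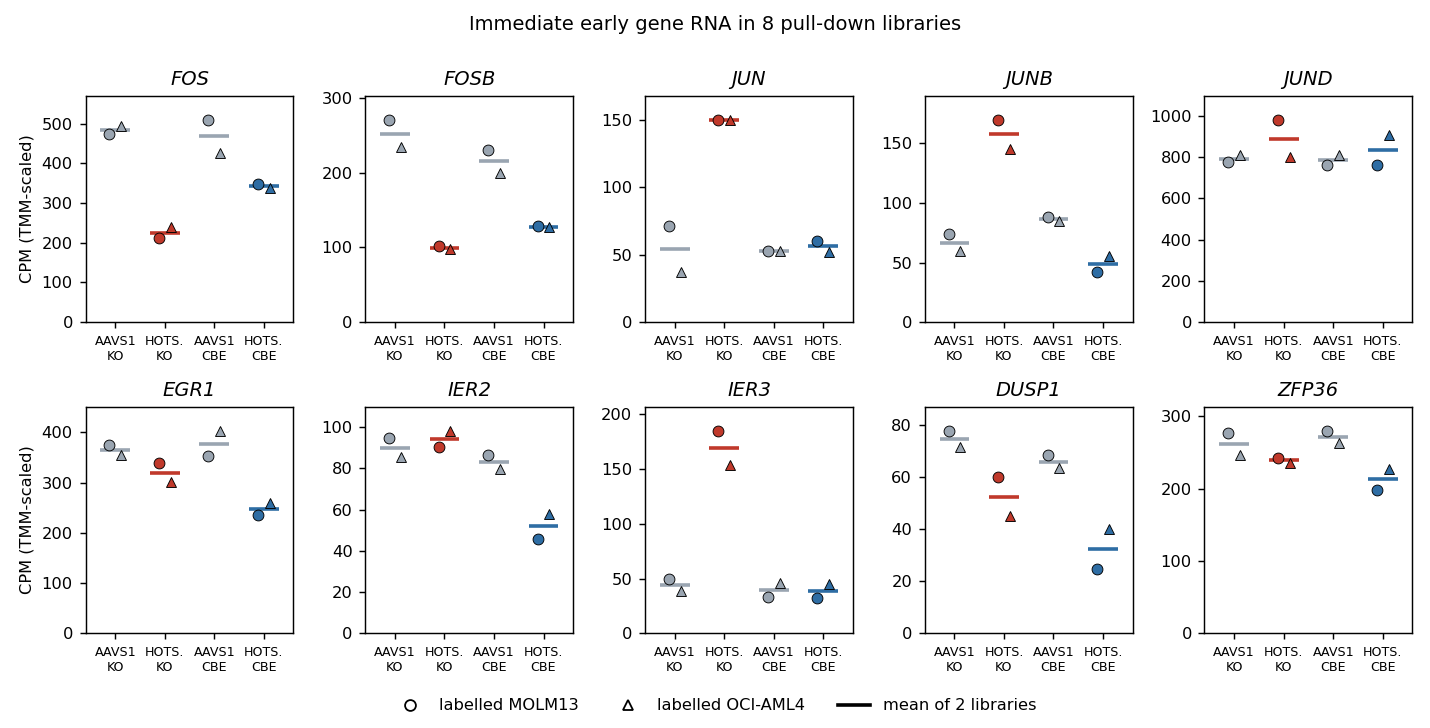
CPM after TMM scaling (vertical axes from 0, with a scale of its own for each gene) of the 10 genes in the 8 pull-down libraries, with circles for libraries labelled MOLM13, triangles for OCI-AML4 and a bar for the mean of 2 (HOTS. stands for HOTSCRAMBL). JUN, JUNB and IER3 are high in both HOTSCRAMBL KO libraries, and FOS and FOSB are low there. For 7 genes both HOTSCRAMBL CBE libraries lie lower than both AAVS1 CBE libraries. Of all genes tested, 46.4% did not overlap in this comparison, 23.7% being lower.

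In the comparison of HOTSCRAMBL KO with AAVS1 KO, which addresses the effect of Cas9 targeting, the genes split. IER3, JUN and JUNB rose 3.81-fold, 2.79-fold and 2.36-fold over AAVS1 KO, and FOSB and FOS fell to levels 2.52-fold and 2.15-fold lower. Within AP-1, JUN and JUNB were thus higher and FOS and FOSB lower, while JUND was not called. By edgeR's quasi-likelihood test with Benjamini-Hochberg adjustment over all 24057 genes, 5 of the 10 passed an adjusted p of 0.05, 3 higher and 2 lower, where 8.76% of all genes tested passed (4.51% higher and 4.25% lower). Scaled by library totals alone, without TMM, 33.1% of all KO calls were higher, and the 5 genes kept their calls and directions. The median log2 fold change of the 10 was −0.03 and that of all genes tested was −0.01. The libraries of the groups did not overlap for 8 of the 10, 3 higher and 5 lower, which was so for 44.8% of all genes (21.0% higher and 23.8% lower).

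FOS stood at 474 and 494 CPM in AAVS1 KO (MOLM13 label first, here and below) and at 212 and 239 CPM in HOTSCRAMBL KO. Both HOTSCRAMBL KO libraries lay far below both controls, and the log2 fold change was −1.10 (SE 0.115, adjusted p by edgeR 1.09e-07). FOSB, a paralogue induced by the same kinds of stimuli, went from 271 and 234 CPM to 102 and 97.2 CPM. The groups did not overlap, and the log2 fold change of FOSB was −1.34 (SE 0.136, adjusted p by edgeR 6.20e-08).

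JUN, the subunit that JNK phosphorylates, stood at 71.5 and 37.0 CPM in AAVS1 KO and at 150 CPM in each HOTSCRAMBL KO library. The control libraries differed from each other by more than in any other group, so that the pair labelled MOLM13 differed by 1.07 and the pair labelled OCI-AML4 by 2.02 on the log2 scale. The fitted log2 fold change was 1.48 (SE 0.196, adjusted p by edgeR 5.53e-06), and it was 1.11 without AAVS1 KO replicate 2. JUNB, which often opposes JUN in growth control, went from 73.8 and 59.6 CPM to 170 and 145 CPM. The groups were apart, with pair differences of 1.20 and 1.29, and the log2 fold change of JUNB was 1.24 (SE 0.174, adjusted p by edgeR 1.35e-05). JUND, a subunit that resting cells also express, stood at 774 and 808 CPM in AAVS1 KO and at 980 and 799 CPM in HOTSCRAMBL KO. The groups overlapped, and its log2 fold change of 0.17 (95% interval −0.04 to 0.38) was not called (adjusted p by edgeR 0.385).

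IER3, the gene of cell survival and ERK signalling, had the largest change of the 10 genes with KO. It went from 49.4 and 39.0 CPM in AAVS1 KO to 184 and 153 CPM in HOTSCRAMBL KO, with pair differences of 1.90 and 1.98 and a log2 fold change of 1.93 (SE 0.201, adjusted p by edgeR 1.09e-07). Both HOTSCRAMBL KO libraries stood above every one of the other 6 libraries. EGR1 stood at 374 and 355 CPM in AAVS1 KO and at 338 and 302 CPM in HOTSCRAMBL KO. Its groups did not overlap, but the log2 fold change of −0.19 (95% interval −0.42 to 0.04) was not called (adjusted p by edgeR 0.373). IER2 overlapped between 94.8 and 85.4 CPM in AAVS1 KO and 90.2 and 98.1 CPM in HOTSCRAMBL KO, with a log2 fold change of 0.06 (95% interval −0.30 to 0.42, adjusted p by edgeR 0.883).

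The 2 genes that act in negative feedback were not called with KO. DUSP1 stood at 77.5 and 71.4 CPM in AAVS1 KO and at 59.8 and 44.8 CPM in HOTSCRAMBL KO. The groups were apart, and the log2 fold change was −0.52 (95% interval −0.98 to −0.06, adjusted p by edgeR 0.178). ZFP36 stood at 277 and 247 CPM and at 242 and 236 CPM, close to each other, with a log2 fold change of −0.13 (95% interval −0.38 to 0.12, adjusted p by edgeR 0.610). Each of the 5 called genes kept its call and direction in all 18 alternative settings, and each of the other 5 stayed uncalled in all 18, with a sign that turned for JUND and IER2 in some of them. In 4 of the 18 a KO group kept 1 library, whose spread was then assumed to be that of the other groups.

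In HOTSCRAMBL KO, the summed level of the 12 myeloid markers was higher, at 2290 to 2471 CPM beside 1886 to 2027 CPM in AAVS1 KO. Of the 11 markers tested, edgeR called LYZ, CEBPA and CSF1R higher and 0 lower, where 8.76% of all genes were called. By direction, however, 4 of the 11 were higher and 7 lower, with a median log2 fold change of −0.09, so the markers did not rise as a set. The sum was 1893 to 1903 CPM in AAVS1 CBE and 1776 to 1844 CPM in HOTSCRAMBL CBE. The part of these markers in the changes of the 10 genes was not tested.

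**Figure D2:**
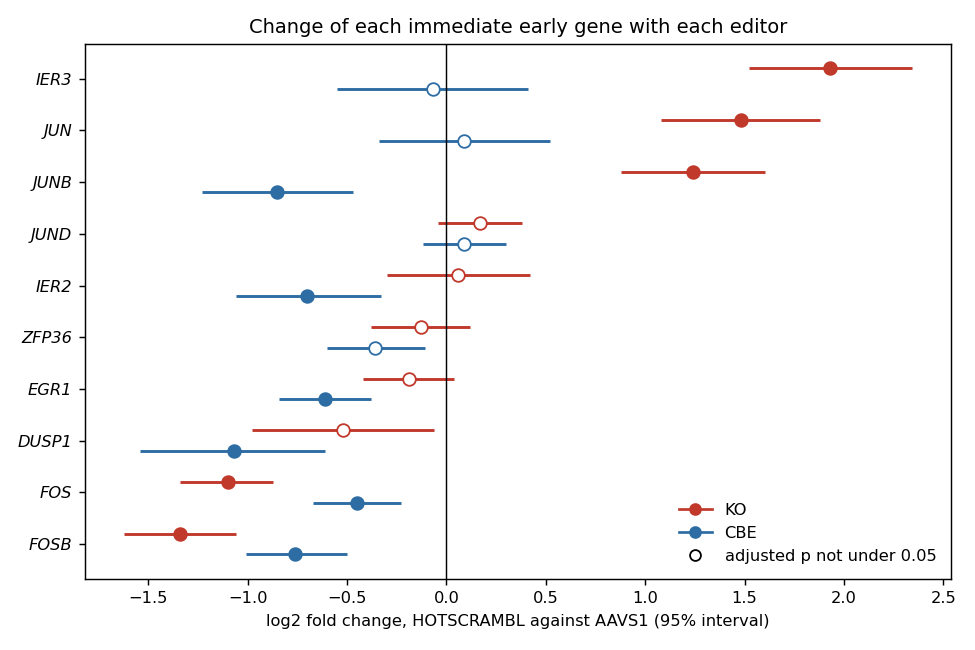
Log2 fold change of HOTSCRAMBL against AAVS1 (horizontal axis, points with 95% intervals from edgeR's fit to 8 libraries) for each gene with KO (red) and CBE (blue), filled where the adjusted p was under 0.05. With KO 3 filled points lie above 0 and 2 below, and with CBE 6 lie below 0 and none above.

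With the base editor, in HOTSCRAMBL CBE against AAVS1 CBE, the called genes all fell. DUSP1, JUNB, FOSB, IER2, EGR1 and FOS were lower in HOTSCRAMBL CBE than in AAVS1 CBE, by 2.10-fold, 1.80-fold, 1.69-fold, 1.62-fold, 1.53-fold and 1.37-fold. IER3 and JUN, which rose with KO, were not called. By edgeR's quasi-likelihood test 6 of the 10 passed, 0 higher and 6 lower, where 8.83% of all genes tested passed (4.56% higher and 4.27% lower). Without TMM, 32.6% of all CBE calls were higher, and ZFP36 joined the 6 genes as lower. The median log2 fold change of the 10 was −0.53 and that of all genes tested was −0.02. The groups did not overlap for 7 of the 10, all lower, which was so for 46.4% of all genes (22.7% higher and 23.7% lower).

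DUSP1, the phosphatase, stood at 68.2 and 63.2 CPM in AAVS1 CBE and at 24.6 and 40.0 CPM in HOTSCRAMBL CBE. The groups were apart and the HOTSCRAMBL CBE libraries differed among themselves, with pair differences of −1.47 and −0.66 and a log2 fold change of −1.07 (SE 0.226, adjusted p by edgeR 0.00208). ZFP36, the other feedback gene, stood at 279 and 263 CPM and at 198 and 227 CPM. Its groups were apart too, but its log2 fold change of −0.36 (SE 0.117, adjusted p by edgeR 0.0577) missed the threshold, which it passed in 4 of 18 alternatives, among them DESeq2 (adjusted p 0.0104) and limma-voom (adjusted p 0.0108).

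Of the AP-1 genes, FOSB went from 230 and 200 CPM to 128 and 127 CPM, a log2 fold change of −0.76 (SE 0.126, adjusted p by edgeR 0.000143). Its groups lay far apart beside the spread within each. FOS went from 509 and 426 CPM to 347 and 338 CPM, a log2 fold change of −0.45 (SE 0.108, adjusted p by edgeR 0.00656). JUNB went from 88.2 and 85.2 CPM to 42.2 and 55.7 CPM, a log2 fold change of −0.85 (SE 0.183, adjusted p by edgeR 0.00261). The groups were apart for FOS and JUNB as well, and JUNB thus moved against its direction with KO. JUN stood at 52.6 and 52.8 CPM in AAVS1 CBE and at 60.4 and 51.9 CPM in HOTSCRAMBL CBE, and JUND at 760 and 811 CPM and at 764 and 909 CPM. Both overlapped between groups, with log2 fold changes of 0.09 for JUN (95% interval −0.34 to 0.52) and 0.09 for JUND (95% interval −0.12 to 0.30), of which neither was called (adjusted p by edgeR 0.854 and 0.692).

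EGR1 stood at 353 and 403 CPM in AAVS1 CBE and at 236 and 259 CPM in HOTSCRAMBL CBE, a log2 fold change of −0.61 (SE 0.111, adjusted p by edgeR 0.000468). IER2 went from 86.4 and 79.5 CPM to 45.9 and 57.9 CPM, a log2 fold change of −0.70 (SE 0.178, adjusted p by edgeR 0.0117). Both HOTSCRAMBL CBE libraries were the lowest of the 8 for each of these genes. IER3 overlapped between 33.3 and 46.1 CPM in AAVS1 CBE and 31.8 and 44.8 CPM in HOTSCRAMBL CBE, with a log2 fold change of −0.07 (95% interval −0.55 to 0.41, adjusted p by edgeR 0.910).

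These CBE calls rested on few libraries. Of the 6 genes, FOSB alone was called in all 18 alternatives. Each of the others lost its call in at least 1 fit without a library of the CBE groups. Over all genes tested, calls also fell in each of these fits. Whether the 6 genes lost calls more readily than other genes was not tested. Without HOTSCRAMBL CBE replicate 1 the log2 fold changes were −0.67 for FOSB, −0.62 for DUSP1, −0.54 for JUNB, −0.49 for IER2, −0.54 for EGR1 and −0.46 for FOS. Without AAVS1 CBE replicate 1 they were −0.69 for FOSB, −0.99 for DUSP1, −0.85 for JUNB, −0.58 for IER2, −0.71 for EGR1 and −0.28 for FOS. The direction of all 6 held in every alternative, and in these fits the group with 1 library was assumed to vary like the others.

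The direct test of whether the effect of HOTSCRAMBL targeting differed between KO and CBE called JUNB, IER3, JUN and FOS. The effect of KO exceeded that of CBE by 2.09 on the log2 scale for JUNB (SE 0.253, adjusted p by edgeR 6.19e-06), by 2.00 for IER3 (SE 0.312, adjusted p by edgeR 0.000235) and by 1.39 for JUN (SE 0.288, adjusted p by edgeR 0.00493). For FOS it was lower, at −0.65 (SE 0.157, adjusted p by edgeR 0.0180), since FOS fell further with KO. These were 4 of the 10, 3 higher and 1 lower, where 3.19% of all genes tested were called (1.74% higher and 1.45% lower). The difference of FOSB, −0.58 (95% interval −0.96 to −0.20), was not called (adjusted p by edgeR 0.101), nor were those of IER2 (0.76, 95% interval 0.25 to 1.28, adjusted p 0.112), DUSP1 (0.55, −0.11 to 1.21, adjusted p 0.468), EGR1 (0.42, 0.09 to 0.75, adjusted p 0.189), ZFP36 (0.22, −0.12 to 0.57, adjusted p 0.605) and JUND (0.08, −0.21 to 0.38, adjusted p 0.872). For IER2, EGR1 and DUSP1, called with CBE only, a difference between the editors was therefore not shown.

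JUNB and IER3 kept this call in all 17 alternatives. FOS lost it in 7, among them the fit with no replicate block (−0.65, adjusted p 0.0769) and without AAVS1 KO replicate 1 (−0.71, 0.120), AAVS1 KO replicate 2 (−0.58, 0.229), HOTSCRAMBL KO replicate 1 (−0.53, 0.219), AAVS1 CBE replicate 2 (−0.49, 0.252), HOTSCRAMBL CBE replicate 1 (−0.64, 0.143) and HOTSCRAMBL CBE replicate 2 (−0.66, 0.115). JUN lost it in 5, without AAVS1 KO replicate 2 (1.01, adjusted p 0.127), HOTSCRAMBL KO replicate 2 (1.22, 0.101), AAVS1 CBE replicate 2 (1.26, 0.108), HOTSCRAMBL CBE replicate 1 (1.37, 0.116) and HOTSCRAMBL CBE replicate 2 (1.40, 0.0809). DESeq2 called 7 of the 10, adding FOSB, EGR1 and IER2, but over all genes it also called more, 2205 where edgeR called 767.

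Over both editors, FOS and FOSB were called lower with each, JUNB was called in opposite directions, IER3 and JUN were called with KO only, DUSP1, EGR1 and IER2 with CBE only, and JUND and ZFP36 with neither. The effects of KO and CBE share no library. For the average of both effects edgeR called 6 of the 10, where 12.3% of all genes tested were called (5.79% higher and 6.51% lower), and 27.6% of all calls were higher without TMM. IER3 was higher by 0.93 (SE 0.156, adjusted p 0.000104) and JUN by 0.79 (SE 0.144, adjusted p 0.000287) on the log2 scale. FOSB was lower at −1.05 (SE 0.0928, adjusted p 3.13e-09), FOS at −0.78 (SE 0.0787, adjusted p 4.54e-08), DUSP1 at −0.80 (SE 0.159, adjusted p 0.000806) and EGR1 at −0.40 (SE 0.0795, adjusted p 0.000754). For JUN and IER3 this average joins a rise with KO and no call with CBE. Without HOTSCRAMBL CBE replicate 1 the call of DUSP1 was lost (−0.57, adjusted p by edgeR 0.0547).

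The make-up of the AP-1 transcripts shifted with these changes. Per kb of exon, FOS and FOSB together stood at 198 and 197 CPM per kb in AAVS1 KO, at 84.9 and 92.4 in HOTSCRAMBL KO, at 201 and 170 in AAVS1 CBE and at 132 and 129 in HOTSCRAMBL CBE. Divided by the sum of JUN, JUNB and JUND, this gave a ratio of 0.428 and 0.427 in AAVS1 KO and 0.132 and 0.173 in HOTSCRAMBL KO. For CBE the ratio was 0.441 and 0.352 in the controls but 0.303 and 0.250 in HOTSCRAMBL CBE. In this ratio both HOTSCRAMBL groups lay below their controls with no overlap. The ratio leaves out FOSL2, a further FOS family gene described below, and was not computed with it. Per kb of exon, mean FOSL2 went from 44.2 to 31.3 CPM with KO but rose from 43.5 to 59.6 CPM with CBE. JUND made up most of the JUN family in every library, from 77.4% to 91.3%. JUN and JUNB together made up 13.0% and 9.28% of the JUN family in AAVS1 KO and 20.9% and 22.6% in HOTSCRAMBL KO, but for CBE 13.7% and 12.7% in the controls against 9.12% and 8.68% in HOTSCRAMBL CBE. These ratios describe RNA in the pull-down and carry no test, since they are built from the genes tested above.

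**Figure D3:**
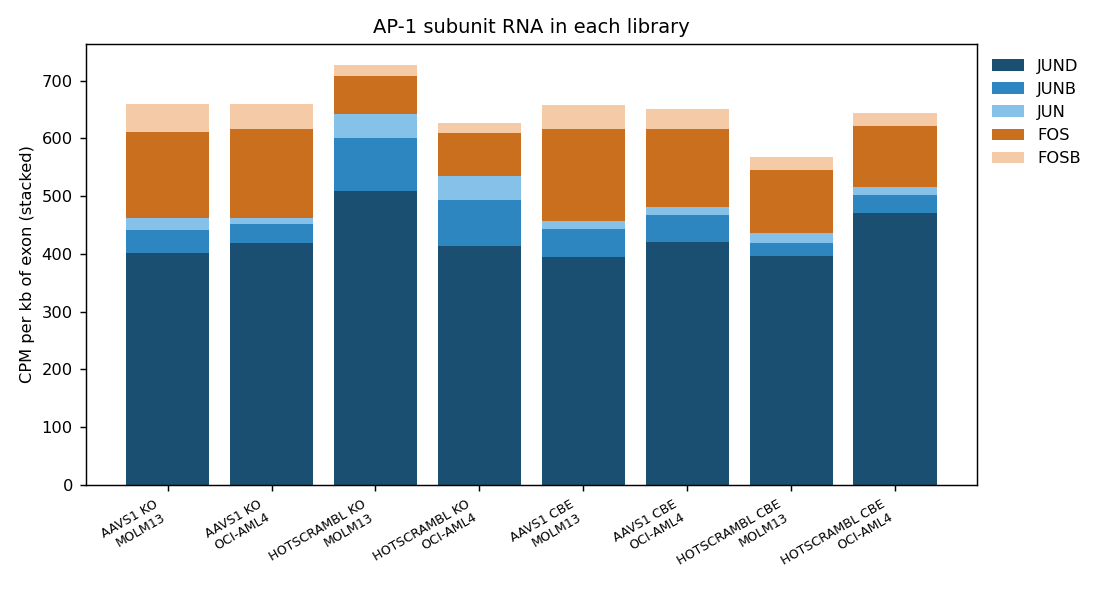
Stacked bars of the CPM per kb of exon (vertical axis, from 0) of 5 AP-1 subunit genes in each of the 8 libraries. JUN, JUNB and JUND are in blue and FOS and FOSB in orange, and FOSL2 is not drawn. The orange part is smallest in the HOTSCRAMBL KO libraries (84.9 and 92.4 CPM per kb), where the JUNB and JUN parts are largest.

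The order of levels changed accordingly. In HOTSCRAMBL KO, IER3 held rank 2, where it had held rank 8 in AAVS1 KO, at 125 CPM per kb of full exon (205 of unshared exon) and overlapping ZFP36 at 121 CPM per kb. FOS moved from rank 2 to rank 6, at 70.7 CPM per kb, and FOSB became the lowest at 18.0 CPM per kb. In HOTSCRAMBL CBE, ZFP36 and FOS stood next to each other at 108 and 107 CPM per kb, and IER2, DUSP1 and JUN at the lower end, at 16.9, 16.0 and 15.5 CPM per kb, overlapped.

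Annotated genes on the opposite strand overlap 5 of the 10, and reads were counted without strand. For JUNB, the exons of HOOK2 cover 259 bases (14.15% of JUNB's exons), where reads were not counted for either gene. HOOK2, a microtubule linker gene, was lower with both editors, with log2 fold changes of −1.09 with KO (adjusted p by edgeR 8.34e-05) and −1.22 with CBE (adjusted p by edgeR 8.40e-06), and its effects did not differ by a called amount (0.13, adjusted p 0.879), unlike those of JUNB. IER3 shares 440 exonic bases with IER3-AS1, which had 127 counts in all 8 libraries beside 13983 for IER3, and 85 with HCG20, which had 45. The 2 unnamed genes that share 662 and 946 exonic bases with IER2 had 0 counts, which says nothing of reads in the shared bases, since these were counted for neither gene, and the same holds for the low counts of IER3-AS1 and HCG20. ERCC1 at FOSB and an unnamed gene at DUSP1 share no exonic base with them. The spans of these genes, and that of HOOK2, nevertheless contain the whole of FOSB, DUSP1 and JUNB. Counted without strand, reads from introns of the overlapping gene would add to FOSB, DUSP1 or JUNB, and their part was not tested.

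The rest of the response was read from 26 other immediate early genes. With KO, 10 of them were higher and 5 lower by edgeR's test (8.76% of all genes tested were called), with a median log2 fold change of 0.82. With CBE, 1 was higher and 5 were lower (8.83% of all genes), with a median of −0.52, and the effect of KO exceeded that of CBE for 10 and fell short of it for 1 (3.19% of all genes). The calls were thus mixed with KO and mostly lower with CBE, as for the 10 genes, and the list as a whole was not tested. The smallest adjusted p values with KO belonged to IER5L, a relative of IER2, to ARC and to PLK2, a kinase gene of the stress response. IER5L stood at 17.8 and 16.9 CPM in AAVS1 KO, at 162 and 143 CPM in HOTSCRAMBL KO, at 15.4 and 14.8 CPM in AAVS1 CBE and at 8.98 and 8.86 CPM in HOTSCRAMBL CBE. It rose with KO (log2 fold change 3.13, SE 0.220, adjusted p by edgeR 4.92e-11) and was not called with CBE (−0.77, adjusted p 0.203). PLK2 went from 14.2 and 16.8 CPM to 136 and 99.3 CPM with KO (2.92, SE 0.265, adjusted p by edgeR 9.46e-09).

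ARC and RHOB repeated the pattern of JUNB, up with KO and down with CBE. ARC, best known as a synaptic activity gene, went from 11.8 and 7.04 CPM to 148 and 106 CPM with KO (3.76, adjusted p by edgeR 5.11e-11) and from 11.2 and 5.09 CPM to 0.67 and 0 CPM with CBE (adjusted p 0.000878). RHOB, which encodes a small GTPase, went from 26.3 and 22.3 CPM to 129 and 93.2 CPM with KO (2.18, adjusted p by edgeR 1.67e-07) and from 32.0 and 25.0 CPM to 10.4 and 15.4 CPM with CBE (−1.20, adjusted p 0.0106). The difference between editors was called for both (adjusted p 2.72e-07 for ARC and 2.62e-06 for RHOB).

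PPP1R15A and MCL1 repeated the pattern of FOS and FOSB, down with both editors. PPP1R15A (GADD34), which restores translation after stress, stood at 960 and 837 CPM in AAVS1 KO and at 607 and 442 CPM in HOTSCRAMBL KO, and at 991 and 817 CPM in AAVS1 CBE and 586 and 520 CPM in HOTSCRAMBL CBE. Its log2 fold changes were −0.79 with KO and −0.71 with CBE (adjusted p by edgeR 1.14e-06 and 5.46e-06). MCL1, a survival gene on which many AML cells depend, had log2 fold changes of −0.72 with KO and −0.55 with CBE (adjusted p by edgeR 8.07e-05 and 0.00132). KLF6 fell with KO alone (−1.17, adjusted p 0.000236; 0.18 with CBE; difference called, adjusted p 0.00324), and KLF10 was the 1 gene of this list that rose with CBE (0.83, adjusted p by edgeR 0.0119).

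**Figure D4:**
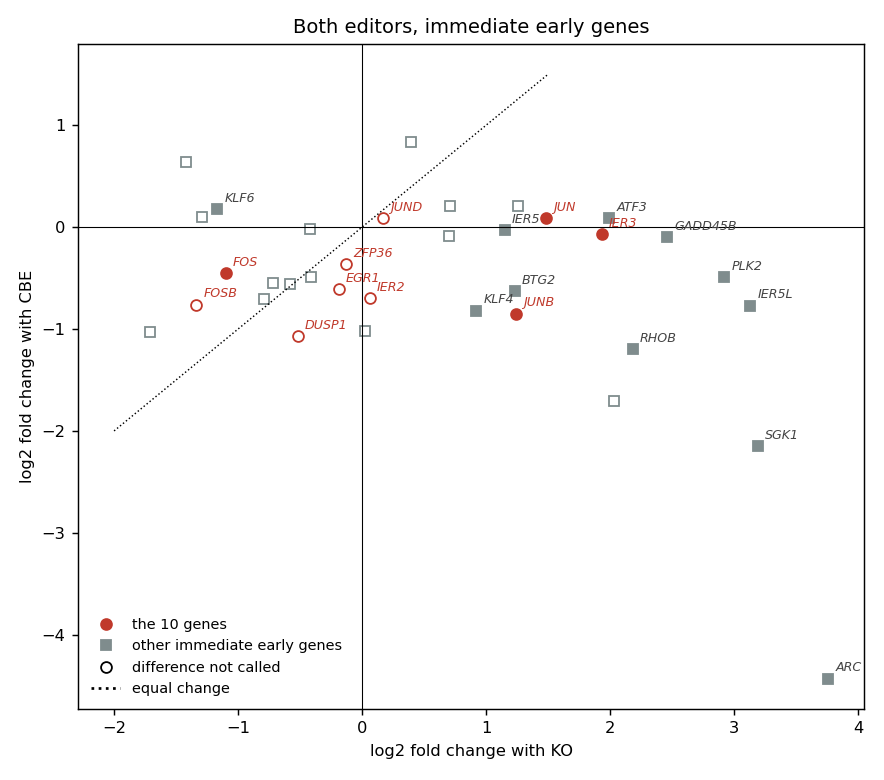
Log2 fold change with KO (horizontal axis) and with CBE (vertical axis) of the 10 genes (red circles) and 25 of the 26 other immediate early genes (grey squares), leaving out NR4A3, which had no count in a whole group, filled and named (grey) where the difference between editors was called. The filled points lie to the right of the dotted line of equal change except KLF6 and FOS, with KO values from 0.92 (KLF4) to 3.76 (ARC).

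The other genes of the pathway were read by branch, beside the same 8.76% of all genes called with KO and 8.83% with CBE. Of 24 kinases and transcription factors upstream (ERK, p38, JNK, SRF and CREB branches), 3 were higher and 2 lower with KO, and the median log2 fold change was 0.00. ELK4, an ETS partner of SRF, went from 1527 and 1427 CPM to 2348 and 2397 CPM with KO (0.68, adjusted p by edgeR 1.67e-06). MAPKAPK2, the kinase below p38 that acts on tristetraprolin, went from 63.9 and 67.8 CPM to 141 and 160 CPM (1.19, adjusted p by edgeR 7.26e-06). ELK3 also rose (1.43, adjusted p by edgeR 0.0435), and MRTFA, a coactivator of SRF, and RPS6KA5, the kinase MSK1, fell (−0.80 and −1.26, adjusted p by edgeR 0.000108 and 0.0172). The effects differed between editors by a called amount for MAPKAPK2 and ELK4.

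Among 8 other AP-1 partners, FOSL2 fell with KO and rose with CBE, against the direction of JUNB in both. It stood at 298 and 334 CPM in AAVS1 KO, 215 and 234 CPM in HOTSCRAMBL KO, 304 and 320 CPM in AAVS1 CBE and 419 and 435 CPM in HOTSCRAMBL CBE. The log2 fold changes were −0.49 and 0.45 (adjusted p by edgeR 0.00370 and 0.00389), and the difference was called (−0.95, adjusted p 0.000276). JDP2, a repressor that binds JUN proteins, rose with CBE (0.63, adjusted p by edgeR 0.0284), and the other 6 were not called with either editor.

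Of 14 feedback genes of MAP kinase signalling, DUSP10 and SPRED2 rose with both editors, whereas DUSP1 fell with CBE. DUSP10, a phosphatase for JNK and p38, went from 57.0 and 40.9 CPM to 175 and 115 CPM with KO (1.56, adjusted p by edgeR 9.44e-07) and from 39.4 and 35.2 CPM to 78.7 and 74.4 CPM with CBE (1.03, adjusted p by edgeR 0.000624). SPRED2, an inhibitor of RAF activation, had log2 fold changes of 0.75 and 0.57 (adjusted p by edgeR 0.00739 and 0.0387). SPRED1, its relative, fell with KO from 10.7 and 8.80 CPM to 1.43 and 0 CPM (adjusted p by edgeR 0.00657). DUSP4, a phosphatase for ERK, had no count in any AAVS1 library and stood at 7.04 and 1.25 CPM in HOTSCRAMBL KO (adjusted p by edgeR 0.0223). In HOTSCRAMBL CBE it stood at 2.77 and 0 CPM and was not called. In all, 3 of the 14 were called higher and 1 lower with KO, and 2 higher with CBE.

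Of 13 genes listed for the turnover of AU-rich mRNAs, 1 was higher and 1 lower with KO and 2 were higher with CBE. ZFP36L2, a paralogue of ZFP36, went from 199 and 236 CPM to 475 and 463 CPM with KO (1.11, adjusted p by edgeR 6.45e-08) and differed between editors (0.90, adjusted p 0.000910), while ZFP36 itself was called with neither. TIAL1 fell with KO (−0.52, adjusted p by edgeR 0.0477), and DCP2, the decapping enzyme, and CNOT1, the scaffold of the CCR4-NOT deadenylase, rose with CBE (0.89 and 0.48, adjusted p by edgeR 0.00207 and 0.00627). Annotated genes overlap many of the genes named from these other lists (among them IER5L, MCL1, FOSL2, ELK4 and ZFP36L2), and their values carry that uncertainty.

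The genes whose levels most resembled the mean standardised level of the 10, over 8 libraries and among 12018 genes of above-median level, were GABBR1 (Pearson r 0.98), SLC12A9 (0.98), NOL12 (0.98), ZNF668 (0.98) and GARIN1A (0.97). That mean was lowest in the HOTSCRAMBL CBE libraries, at −1.15 and −0.51 standard deviations, and ran from 0.09 to 0.50 in the other 6. It hides the split with KO, where rises and falls cancel. The 8 libraries share their groups and scaling, and the likeness is a description.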

How the data were processed

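Whole-number counts per gene were deposited by the authors for 8 libraries. Per the file headers, featureCounts 2.0.6 counted reads over Ensembl 112 exons of GRCh38, without strand, multi-mapping reads, reads over several genes or pair counting, so both reads of a pair were counted. The aligner and duplicate handling are not given in the sources used here. The records of 2 genes were rejoined, and 62541 identifiers (99.05%) had a symbol in the name table. Totals were 20548300 to 37970163. All 8 count columns were used and 0 were left over.

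Groups came from the titles. Tests used edgeR 4.0.16 under R 4.3.3 (quasi-likelihood F-test, robust, TMM, filterByExpr at a minimum count of 10), with terms for group and line label, 3 residual degrees of freedom, and Benjamini-Hochberg adjustment over 24057 genes at 0.05. Replicate numbers pair libraries because each marks a labelled cell line. Same-numbered libraries deviated together weakly (r 0.00851 to 0.0245 over tested genes, 0.0411 to 0.117 over genes above the median level). Libraries of a group differed beyond counting noise (chi-square per degree of freedom 30.3 to 36.6), which cannot tell repeat preparations from separate samples, and none was treated as a repeat. Intervals are at 95%. The prior degrees of freedom, which come from the spread across genes, were 22.2 to 22.7 and enter the p-values and intervals of edgeR.

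The 10 genes, the other lists and the tests were chosen with earlier results of these data known. Named genes were the 10, and from each other list up to 3 called genes in each direction with the smallest adjusted p for KO, CBE and their difference. The result of 1 gene that this rule names is not reported here. NR4A3 is named for its absence from a plot, KLF4 for its place in one, and HOOK2, ERCC1, IER3-AS1 and HCG20 for their overlap, chosen after their values were seen. Alternatives were RLE scaling, no TMM, no filter, a minimum count of 50, halved counts, only the libraries of the contrast, no replicate block, DESeq2 1.42.0, limma-voom 3.58.1 and each library left out. The older quasi-likelihood method of edgeR was added after seeing the data.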

Additional observations from a re-analysis of the deposited data

Results flagged for a closer look

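The effect of HOTSCRAMBL targeting differed between Cas9 knockout and base editing for 4 of the 10 genes. The direct test was edgeR's quasi-likelihood test of the interaction, which called 3.19% of all genes tested. JUNB and IER3 kept this call in all 17 alternatives, whereas FOS lost it in 7 and JUN in 5. The pair values below come from the same libraries as the test. The difference, KO minus CBE on the log2 scale, was 2.09 for JUNB, 2.00 for IER3, 1.39 for JUN and −0.65 for FOS. JUNB was higher in 2 of 2 pairs with KO and lower in 2 of 2 pairs with CBE. IER3 was higher in both KO pairs (1.90 and 1.98) and near 0 in both CBE pairs (−0.07 and −0.04). JUN was higher in both KO pairs (1.07 and 2.02), with CBE pairs at 0.20 and −0.02. FOS was lower in all 4 pairs, by more with KO (−1.16 and −1.05) than with CBE (−0.55 and −0.34).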

How the results depend on the processing

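With 18 alternatives, 645 of 700 single-gene values kept their direction and side of the threshold, 30 lost and 13 gained a call, and 12 turned, each of a gene not called; the cause was not tested. Without TMM, where the median of all genes shifted to −0.17 with KO, −0.15 with CBE and −0.18 on average, IER2 with KO turned to −0.09, JUN and JUND with CBE to −0.05 each and JUND on average to −0.02. Leaving out 1 library moved uncalled genes within −0.05 to 0.38 for JUND and −0.04 to 0.19 for IER2 with KO, −0.07 to 0.24 for JUN and −0.35 to 0.23 for IER3 with CBE, and −0.14 to 0.29 for the difference of JUND. It turned IER2 with KO to −0.04 (AAVS1 KO replicate 2), JUND with KO to −0.05 and its difference to −0.14 (HOTSCRAMBL KO replicate 1), JUN with CBE to −0.07 (AAVS1 CBE replicate 1), JUND with CBE to −0.06 (HOTSCRAMBL CBE replicate 2), its difference to −0.07 (HOTSCRAMBL CBE replicate 1) and IER3 with CBE to 0.21 (AAVS1 CBE replicate 2) and 0.23 (HOTSCRAMBL CBE replicate 1). Of the 10 genes, CBE called 2 with only the libraries of the contrast (a fit of fewer samples) and 1 to 6 leaving out a library, and the difference called 7 with DESeq2 and 2 to 4 leaving out a library. With no replicate block the calls were 5 with KO, 6 with CBE and 3 for the difference, where FOS (−0.65) lost its call; no other call of the 10 genes changed under this pairing choice. Over all genes, the 2108 calls with KO ranged from 661 (only the libraries of the contrast) to 4150 (DESeq2), the 2124 with CBE from 528 to 3351, the 2958 on average from 1662 to 4863, the 767 of the difference from 234 to 2205, and the 119 of the line labels from 26 to 715; the controls had 0 to 35. With 2 libraries a group, changes of the 10 genes as large as −0.52 (DUSP1 with KO, SE 0.223) were not called. Nor was a difference between editors as large as 0.76 (IER2, SE 0.25).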
